A study of Danio rerio with 3 samples.

Results

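The genes described here encode the zebrafish Nodal ligands and the proteins through which they signal, and 10 of the 35117 genes in the table belong to this set. They were taken by symbol: the ligand genes ndr1, ndr2 and gdf3, the co-receptor gene tdgf1, the type I receptor gene acvr1ba, the inhibitor genes lft1 and lft2, and smad2, smad3a and smad3b. All 10 were present, each once. The embryos were whole, untreated and wild type, and were collected at 10 hours post fertilization (hpf), near the end of gastrulation, or at 6 hpf, near its start. There were 2 libraries at 10 hpf and 1 at 6 hpf, and the labels used here name neither a strain nor the number of embryos per library. The comparison asks which transcripts differ between the completion and the commencement of gastrulation.

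Nodal ligands belong to the TGF-beta family and induce mesoderm and endoderm at the margin of the fish embryo, with the highest signal giving endoderm and dorsal axial mesoderm. In zebrafish, Ndr1 (Squint) and Ndr2 (Cyclops) act together with maternally supplied Gdf3 (Vg1). They bind activin receptors only with the help of an EGF-CFC co-receptor, Tdgf1 (One-eyed pinhead). Activated receptors phosphorylate Smad2 and Smad3, which enter the nucleus with Smad4 and bind DNA with partners such as Foxh1. The Lefty proteins are induced by Nodal signals and block them from outside the cell, which makes a negative feedback loop.

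Levels are RPKM values (reads per kilobase of gene, normalised for sequencing depth) made by the authors, with 1 value per stage, and the file header marks the value at 10 hpf as one for 2 replicates, without saying how they were combined. No value per library was used here, so no level has an SD, and the order of genes close in level cannot be set against a replicate spread. Steps between low values gave a depth of 23243189 reads at 10 hpf, where 1 RPKM equals 23.2 reads per kilobase of gene. At 6 hpf the depth was 16991524 reads, and 1 RPKM equals 17.0 reads per kilobase. RNA came from whole embryos, so fewer cells expressing a gene and less RNA per cell cannot be told apart. A gene was counted as called when its empirical false discovery rate, as the authors deposited it, lay below 0.05, with the direction of the deposited log2 fold of 10 hpf over 6 hpf. With 1 library at 6 hpf, this rate could not measure the variation between libraries at that stage.

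Of the 10 genes, 5 were called lower at 10 hpf in the authors' deposited table (ndr1, gdf3, tdgf1, acvr1ba and lft1), 1 was called higher (smad3b) and 4 were not called (ndr2, lft2, smad2 and smad3a). Over all genes in the authors' deposited table, 29.5% were called, 19.8% lower and 9.70% higher. All 10 genes reached 1 RPKM at a stage, and among the 17494 genes that did so 49.2% were called, 32.9% lower and 16.3% higher. The share of called genes in the set, 60%, is near that of genes that reached 1 RPKM. By role, 2 of 3 ligand genes, the co-receptor gene, the receptor gene and 1 of 2 Lefty genes were called lower. Of the 3 Smad genes 1 was called, in the opposite direction.

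At 7009 well measured genes the deposited fold lay 0.60 below the log2 RPKM ratio, a factor of 1.52. On the RPKM scale a rise thus generally had to be larger than a fall to be called. For genes at 5 RPKM or more the deposited fold had a median of −0.50 rather than 0. Calls were therefore also read after centring, which subtracts −0.50 from the deposited fold and from the conservative log2 fold, a bound nearer to 0 that the authors also deposited. A call was kept where the centred bound had the same sign as before.

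**Figure D1:**
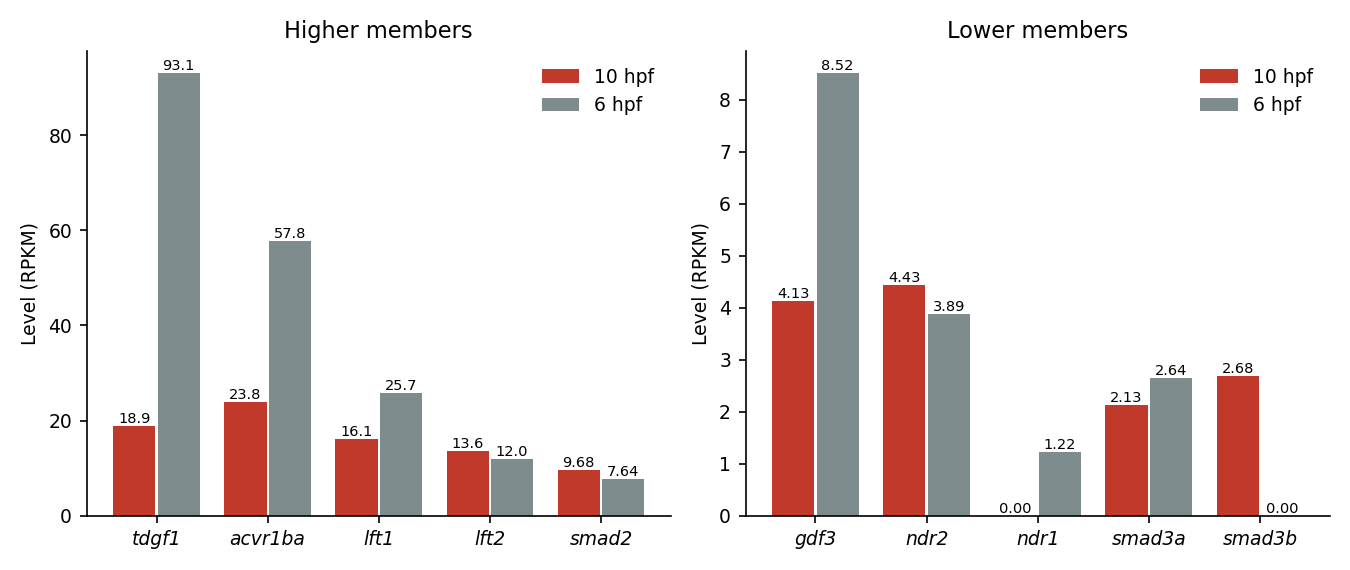
Level of each gene in RPKM (bars, linear axes) at 10 hpf and at 6 hpf, with the more abundant genes in the left panel and the less abundant ones in the right panel. Each bar is 1 deposited value, without an error. The largest gap is that of tdgf1, at 18.9 RPKM at 10 hpf and 93.1 RPKM at 6 hpf, while ndr1 at 10 hpf and smad3b at 6 hpf are listed at 0.

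Among the ligand genes, ndr1 (ENSDARG00000057096), which encodes Squint, was listed at 0 at 10 hpf and at 1.22 RPKM at 6 hpf. The value at 6 hpf corresponded to 20.7 reads per kilobase of gene. At the depth of 10 hpf, 3 reads in a gene of 1 kb would be 0.129 RPKM, which marks how low a level could have been seen, for counting error only. The gene was called lower in the authors' deposited table, with a false discovery rate of 0.000599. A fold against a listed 0 depends on the authors' method and is no bound, so none is printed for this gene. Of 5150 genes between 0.610 and 2.44 RPKM at 6 hpf, 286 (5.55%) were listed at 0 at 10 hpf. None (0) of 77 ribosomal protein genes was listed at 0 at either stage. They were not matched to ndr1 in level, so this does not show how reliable a listed 0 is at its level.

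The Cyclops gene ndr2 (ENSDARG00000101279) stood at 4.43 RPKM at 10 hpf and 3.89 RPKM at 6 hpf, or 103 and 66.1 reads per kilobase, and was not called. Its deposited log2 fold was −0.30, whereas the log2 ratio of its RPKM values was 0.19, so the sign depended on the scaling. For gdf3 (ENSDARG00000037995), the maternally supplied partner, the values were 4.13 RPKM at 10 hpf and 8.52 RPKM at 6 hpf, a 2.06-fold lower level. This gene was called lower in the authors' deposited table (log2 fold −1.59, false discovery rate 0.00181). Its conservative log2 fold was −0.59, and −0.090 after centring, so the call was kept by a small margin.

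The make-up of the ligand transcripts differed between the stages. Within a stage, a share of the summed RPKM does not depend on how the stages were scaled. Of the sum over the 3 ligand genes, ndr2 made up 51.8% at 10 hpf and 28.5% at 6 hpf. The share of gdf3 was 48.2% at 10 hpf and 62.5% at 6 hpf, and that of ndr1 was 0% at 10 hpf and 8.95% at 6 hpf. The sum itself was 8.57 RPKM at 10 hpf and 13.6 RPKM at 6 hpf. The sum of ndr1 and ndr2 alone was closer between stages, at 4.43 RPKM at 10 hpf and 5.11 RPKM at 6 hpf.

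The co-receptor gene tdgf1 (ENSDARG00000035095) had 18.9 RPKM at 10 hpf and 93.1 RPKM at 6 hpf, or 439 and 1582 reads per kilobase. This was the largest decrease in the set among genes with a value at both stages, 4.93-fold on the RPKM scale. Its deposited log2 fold of −2.86 (false discovery rate 0.000599) lay at percentile 7.95 of genes at 1 RPKM or more in the authors' deposited table. Among all genes above 0 it stood at percentile 85.9 at 10 hpf and 96.6 at 6 hpf. The receptor gene acvr1ba (ENSDARG00000018968), which encodes an Alk4-type activin receptor, had 23.8 RPKM at 10 hpf and 57.8 RPKM at 6 hpf, 2.43-fold lower, with a deposited log2 fold of −1.90 and a false discovery rate of 0.000599 in the authors' deposited table. The order of these genes differed between stages. At 10 hpf acvr1ba was the most abundant gene of the set and tdgf1 came next to it, and at 6 hpf tdgf1 led. The ratio of tdgf1 to acvr1ba was 0.792 at 10 hpf and 1.61 at 6 hpf. Together these genes made up 44.7% of the summed RPKM of the set at 10 hpf and 71.0% at 6 hpf.

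The Lefty genes, near relatives in sequence and function, differed in their calls. The level of lft1 (ENSDARG00000019920) was 16.1 RPKM at 10 hpf and 25.7 RPKM at 6 hpf, 1.60-fold lower. It was called lower in the authors' deposited table (log2 fold −1.22, false discovery rate 0.00657), but its conservative log2 fold was −0.25, and 0.25 after centring, so that the call was not kept. For lft2 (ENSDARG00000044059) the values were 13.6 RPKM at 10 hpf and 12.0 RPKM at 6 hpf, and it was not called (deposited log2 fold −0.31, log2 RPKM ratio 0.18). A test of the difference between these genes was not possible without values per library. The ratio of lft1 to lft2 was 1.18 at 10 hpf and 2.14 at 6 hpf. The sources used here do not say how reads matching both paralogs were counted.

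The ratio of inhibitor to ligand transcripts was close at the 2 stages when both Lefty genes were summed. Summed, lft1 and lft2 had 29.7 RPKM at 10 hpf and 37.7 RPKM at 6 hpf. Divided by the sum of ndr1 and ndr2, this gave a ratio of 6.70 at 10 hpf and 7.38 at 6 hpf. This rested on opposite differences: with lft1 alone the ratio was 3.63 at 10 hpf and 5.03 at 6 hpf, and with lft2 alone it was 3.07 at 10 hpf and 2.35 at 6 hpf. With gdf3 counted among the ligands the order turned round, to 3.47 at 10 hpf and 2.77 at 6 hpf. The same division of tdgf1 by ndr1 and ndr2 gave 4.26 at 10 hpf and 18.2 at 6 hpf. The co-receptor ratio thus differed more between the stages than the Lefty ratio did. These ratios compare RPKM levels of transcripts and carry no replicate error.

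**Figure D2:**
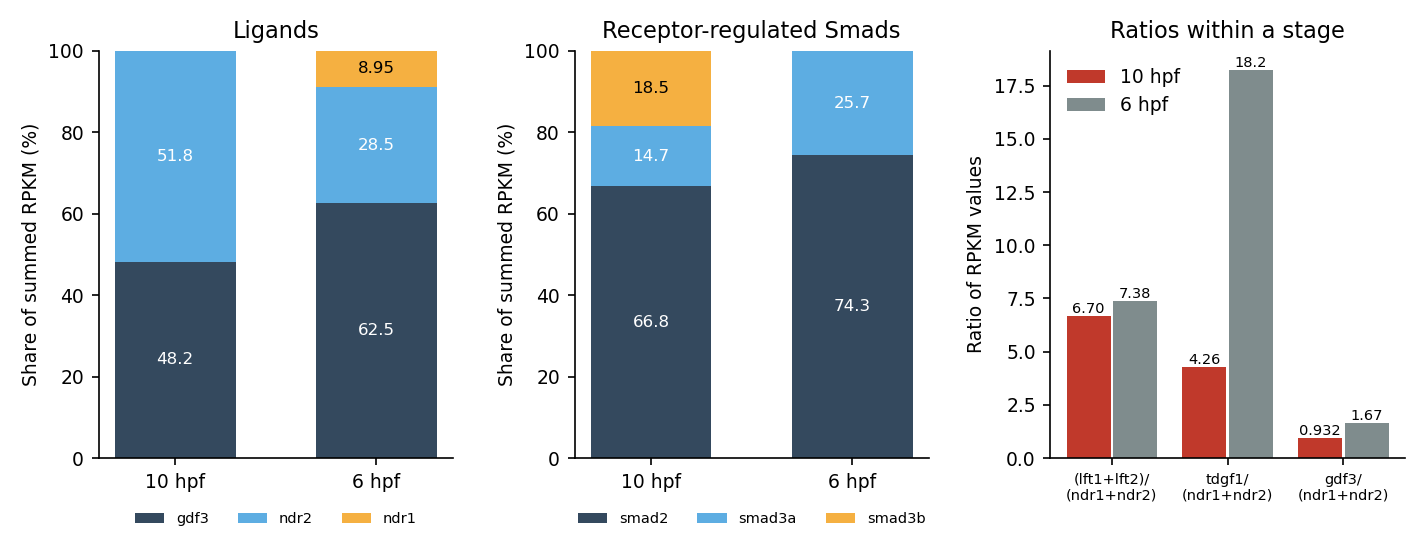
Shares of summed RPKM (%) for the 3 ligand genes and for the 3 Smad genes, and ratios of RPKM values within a stage, at 10 hpf and at 6 hpf. The Lefty to Nodal ratio is 6.70 at 10 hpf and 7.38 at 6 hpf, whereas the tdgf1 to Nodal ratio is 4.26 at 10 hpf and 18.2 at 6 hpf.

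Of the receptor-regulated Smads in the set, which carry the Nodal signal to the nucleus, smad2 (ENSDARG00000006389) was the most abundant at both stages. It had 9.68 RPKM at 10 hpf and 7.64 RPKM at 6 hpf and was not called. The sign of its change depended on the scaling, with a deposited log2 fold of −0.28 and a log2 RPKM ratio of 0.34. The level of smad3a (ENSDARG00000036096) was 2.13 RPKM at 10 hpf and 2.64 RPKM at 6 hpf, without a call (deposited log2 fold −0.84). Its paralog smad3b (ENSDARG00000010207) had 2.68 RPKM at 10 hpf, or 62.3 reads per kilobase, and was listed at 0 at 6 hpf, where 3 reads in a gene of 1 kb would be 0.177 RPKM. It was called higher in the authors' deposited table, with a false discovery rate of 0, and again no fold is printed against the listed 0. Among 5576 genes between 1.34 and 5.36 RPKM at 10 hpf, 219 (3.93%) were listed at 0 at 6 hpf.

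In the sum of these 3 Smad genes, smad2 accounted for 66.8% at 10 hpf and 74.3% at 6 hpf. The share of smad3b was 18.5% at 10 hpf and 0% at 6 hpf, and that of smad3a was 14.7% at 10 hpf and 25.7% at 6 hpf. Summed, the Smad genes had 14.5 RPKM at 10 hpf and 10.3 RPKM at 6 hpf, while the whole set had 95.4 RPKM at 10 hpf and 213 RPKM at 6 hpf. The most abundant gene exceeded the least abundant gene above 0 by 11.2-fold at 10 hpf and by 76.3-fold at 6 hpf. That least abundant gene was smad3a at 10 hpf (2.13 RPKM) and ndr1 at 6 hpf (1.22 RPKM). Genes listed at 0 were left out, ndr1 at 10 hpf and smad3b at 6 hpf. The ratios thus rest on different genes and do not show that the range differed.

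In the authors' deposited table the 8 genes with values at both stages had log2 folds between −2.86 and −0.28. Their median was −1.03, as was that of all 10 genes, beside a median of −0.41 for genes at 1 RPKM or more. The 8 genes with values at both stages had 3 RPKM ratios above 1 (ndr2, lft2 and smad2) and 5 below 1. After centring, 4 genes stayed called lower (ndr1, gdf3, tdgf1 and acvr1ba), while lft1 did not, against 13.4% of all genes and 22.8% of genes at 1 RPKM or more in the authors' deposited table. The call of smad3b was kept, but centring moves every fold upward and so could not have removed a higher call.

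**Figure D3:**
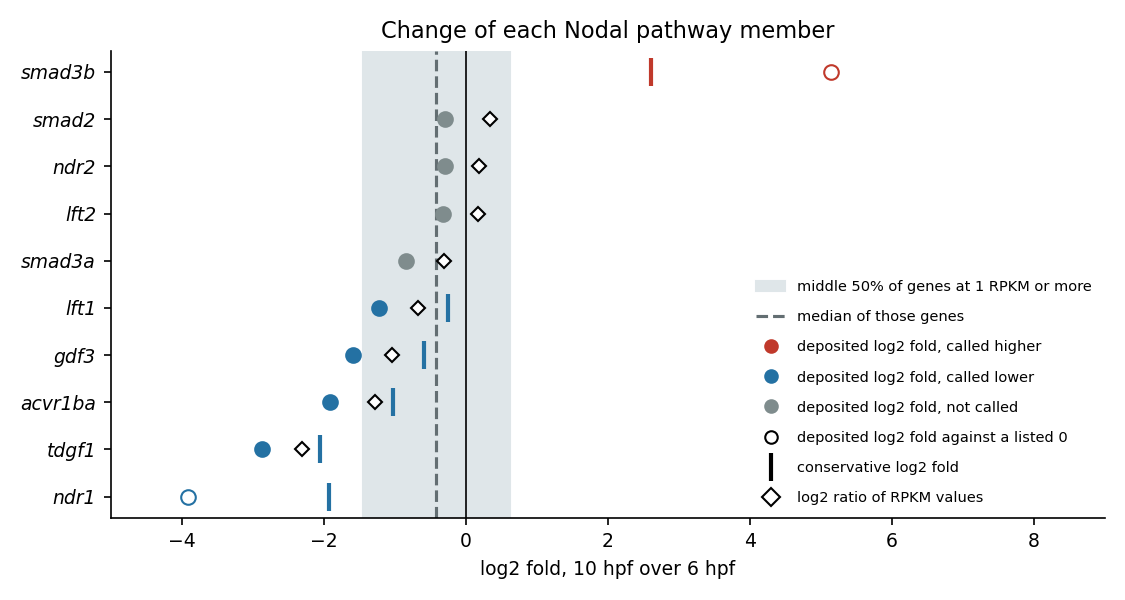
Deposited log2 fold of 10 hpf over 6 hpf for each gene (circles coloured by call, open where a stage is listed at 0), its conservative log2 fold where the false discovery rate was below 1 (vertical ticks) and the log2 ratio of the RPKM values where both were above 0 (open diamonds). The band is the middle 50% and the dashed line the median (−0.41) of genes at 1 RPKM or more. The filled circles of tdgf1 (−2.86), acvr1ba (−1.90) and gdf3 (−1.59) lie below the band, and those of the other 5 genes with values at both stages lie inside it.

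Other genes of the pathway were examined in 6 lists of 104 entries, which matched 97 loci. Their counts of calls stand beside 29.5% called over all genes and 49.2% among genes at 1 RPKM or more (32.9% lower and 16.3% higher). Of the 34 loci of mesendoderm target genes, 16 were called lower at 10 hpf in the authors' deposited table, 1 higher and 17 were not called, so that 50% were called, near the share among genes at 1 RPKM or more. After centring 12 of the 34 loci stayed called lower, beside 22.8% of genes at 1 RPKM or more. The median of the list was −0.75 for the deposited log2 fold and −0.12 for the log2 RPKM ratio taken with a pseudocount of 1. The genes called lower included the Mix-type homeobox gene mixl1, at 1.54 RPKM at 10 hpf and 14.8 RPKM at 6 hpf. The endoderm determinant sox32 had 10.3 RPKM at 10 hpf and 59.4 RPKM at 6 hpf, and eve1, a gene of the ventral margin, had 28.0 RPKM at 10 hpf and 131 RPKM at 6 hpf. The head gene otx2b (otx2 in the table) was called higher, at 56.8 RPKM at 10 hpf and 7.46 RPKM at 6 hpf, 7.60-fold. The most abundant locus not called was a wnt8a locus, at 79.3 RPKM at 10 hpf and 42.6 RPKM at 6 hpf.

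Organizer and endoderm targets, here named after their values had been seen, held genes called lower and genes not called. Those called lower, also after centring, included the organizer gene lhx1a (4.71 RPKM at 10 hpf and 18.0 RPKM at 6 hpf) and the forkhead genes foxa (12.1 RPKM at 10 hpf and 26.7 RPKM at 6 hpf) and foxa3 (31.0 RPKM at 10 hpf and 67.6 RPKM at 6 hpf). The gene tbxta (ta in the table), the Brachyury gene of the mesodermal margin and notochord, was called lower in the authors' deposited table, at 65.5 RPKM at 10 hpf and 233 RPKM at 6 hpf. Others were not called. Of these, the homeobox gene gsc of the dorsal organizer had 16.6 RPKM at 10 hpf and 18.2 RPKM at 6 hpf, and the notochord gene noto had 43.0 RPKM at 10 hpf and 41.2 RPKM at 6 hpf. The endoderm gene sox17, also not called, had 11.2 RPKM at 10 hpf and 4.09 RPKM at 6 hpf. The related forkhead gene foxa2 was not called either, at 30.6 RPKM at 10 hpf and 12.7 RPKM at 6 hpf. The same held for dkk1b (21.8 RPKM at 10 hpf and 9.57 RPKM at 6 hpf). For frzb, again without a call, the values were 19.5 RPKM at 10 hpf and 10.9 RPKM at 6 hpf. In the whole list 16 loci were called lower and 1 higher. These counts follow the deposited fold, which lay 0.60 below the log2 RPKM ratio, so a gene without a call was not necessarily unchanged. The level of sox17 was 2.74-fold higher at 10 hpf without a call. By contrast efnb2b, also named after its values had been seen, was called lower at a 1.51-fold lower level, a call not kept after centring. Its values, 37.3 RPKM at 10 hpf and 56.4 RPKM at 6 hpf, lay above those of sox17 at both stages. What part scaling and level had in these calls was not tested.

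Co-Smads, nuclear partners and negative regulators had 8 of 19 loci called lower, 0 higher and 11 not called in the authors' deposited table, with 6 of the lower calls kept after centring. The calls came to 42.1% of the list, beside 49.2% among genes at 1 RPKM or more. Of those genes, 22.8% were called lower and kept after centring. The list includes 1 locus under 1 RPKM at both stages, eomesa, which was called lower. The Ski-family repressor gene skilb showed the largest decrease of this list, to 0.880 RPKM at 10 hpf against 20.3 RPKM at 6 hpf, 23.0-fold. The level of foxh1, the DNA-binding partner of Smad2, was 12.8 RPKM at 10 hpf and 59.0 RPKM at 6 hpf. That 4.59-fold decrease is close in size to the 4.93-fold decrease of tdgf1. The ubiquitin ligase gene smurf1 had 9.24 RPKM at 10 hpf and 21.4 RPKM at 6 hpf, and ybx1, an RNA-binding protein gene that controls squint mRNA, was not called at 1672 RPKM at 10 hpf and 1449 RPKM at 6 hpf.

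Among 8 other type I and type II receptor loci, 3 were called lower, 1 higher and 4 not. Thus 50% were called, near the share among genes at 1 RPKM or more. The list includes 1 locus under 1 RPKM at both stages, tgfbr2a, which was not called. The genes called lower at 5 RPKM or more were acvr1l, a BMP type I receptor gene, with 35.2 RPKM at 10 hpf and 64.8 RPKM at 6 hpf, acvr2aa, a type II receptor gene, with 4.57 RPKM at 10 hpf and 7.09 RPKM at 6 hpf, and acvr1bb, the paralog of acvr1ba. For acvr1bb the values were 14.1 RPKM at 10 hpf and 19.4 RPKM at 6 hpf. The level of acvr1ba exceeded that of acvr1bb 1.69-fold at 10 hpf and 2.98-fold at 6 hpf. The TGF-beta receptor gene tgfbr1b was not called, at 11.0 RPKM at 10 hpf and 7.27 RPKM at 6 hpf. The gene called higher was tgfbr2b, at 3.13 RPKM at 10 hpf and listed at 0 at 6 hpf. It lay under 5 RPKM and was named after its values had been seen. After centring, acvr1l was the only 1 of the 3 lower calls that was kept. Among genes at 1 RPKM or more, 22.8% were called lower and kept.

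The extracellular partners had 4 of 12 loci called higher, 1 lower and 7 not called in the authors' deposited table. The calls came to 41.7% of the list, beside 29.5% over all genes, of which 9.70% were called higher. Of the 12 loci, 4 stayed under 1 RPKM at both stages. All calls fell among the 8 loci at 1 RPKM or more, with 4 higher and 1 lower. Among all genes at that level 49.2% were called, 16.3% higher and 32.9% lower. The activin antagonist gene fsta (follistatin) had 36.3 RPKM at 10 hpf and 0.382 RPKM at 6 hpf, 95.1-fold higher on the RPKM scale. That ratio rests on a low level in 1 library at 6 hpf. The deposited log2 fold of fsta was 5.83 and its conservative log2 fold 4.66. The pseudoreceptor gene bambib had 5.60 RPKM at 10 hpf and 0.264 RPKM at 6 hpf, whereas its more abundant paralog bambia was not called at 141 RPKM at 10 hpf and 134 RPKM at 6 hpf. The proprotein convertase gene pcsk6 was called lower, at 4.37 RPKM at 10 hpf and 5.42 RPKM at 6 hpf, and this call was not kept after centring. The convertase genes furinb (1.24 RPKM at 10 hpf and 0.135 RPKM at 6 hpf) and pcsk5b (1.90 RPKM at 10 hpf and 0.298 RPKM at 6 hpf) were called higher. Both calls were kept after centring, which cannot remove a higher call. These genes lay under 5 RPKM and were named after their values had been seen. The convertase genes furina and pcsk5a were not called. The third Nodal gene, southpaw (spaw), which acts later in left-right patterning and was named after its values had been seen, was not called at 0.409 RPKM at 10 hpf and 0.0932 RPKM at 6 hpf.

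In the list of other TGF-beta family ligands, which left out the bmp genes, 13 of 19 loci stayed under 1 RPKM at both stages. By the authors' deposited table, 3 were called higher, 3 lower and 13 not, 31.6% called, beside 29.5% over all genes. Of the 6 loci at 1 RPKM or more, 3 were called higher and 1 lower. Among all genes at that level 16.3% were called higher and 32.9% lower. The BMP-related gene admp, at 4.04 RPKM at 10 hpf and 15.6 RPKM at 6 hpf, was called lower, and tgfb3 was the most abundant gene not called, at 1.83 RPKM at 10 hpf and 0.611 RPKM at 6 hpf. The other genes called lower, tgfb1a and mstnb, stayed under 1 RPKM. Those called higher were inhbaa, inhbb and gdf6a, at 1.44, 1.64 and 1.41 RPKM at 10 hpf. At 6 hpf inhbaa had 0.0655 RPKM and inhbb 0.214 RPKM, and gdf6a was listed at 0. These 5 genes lay under 5 RPKM and were named after their values had been seen. Of 5 Smad genes of the BMP branch, 1 was called higher, 1 lower and 3 not. Thus 40% were called, beside 49.2% among genes at 1 RPKM or more. The gene smad6b, which encodes an inhibitory Smad, was called higher at 10.6 RPKM at 10 hpf and 2.45 RPKM at 6 hpf. The BMP-activated smad5 was called lower, at 58.7 RPKM at 10 hpf and 90.4 RPKM at 6 hpf, a call not kept after centring, and smad6a was not called at 14.6 RPKM at 10 hpf and 10.4 RPKM at 6 hpf. The level of smad5 was above that of smad2 at both stages.

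**Figure D4:**
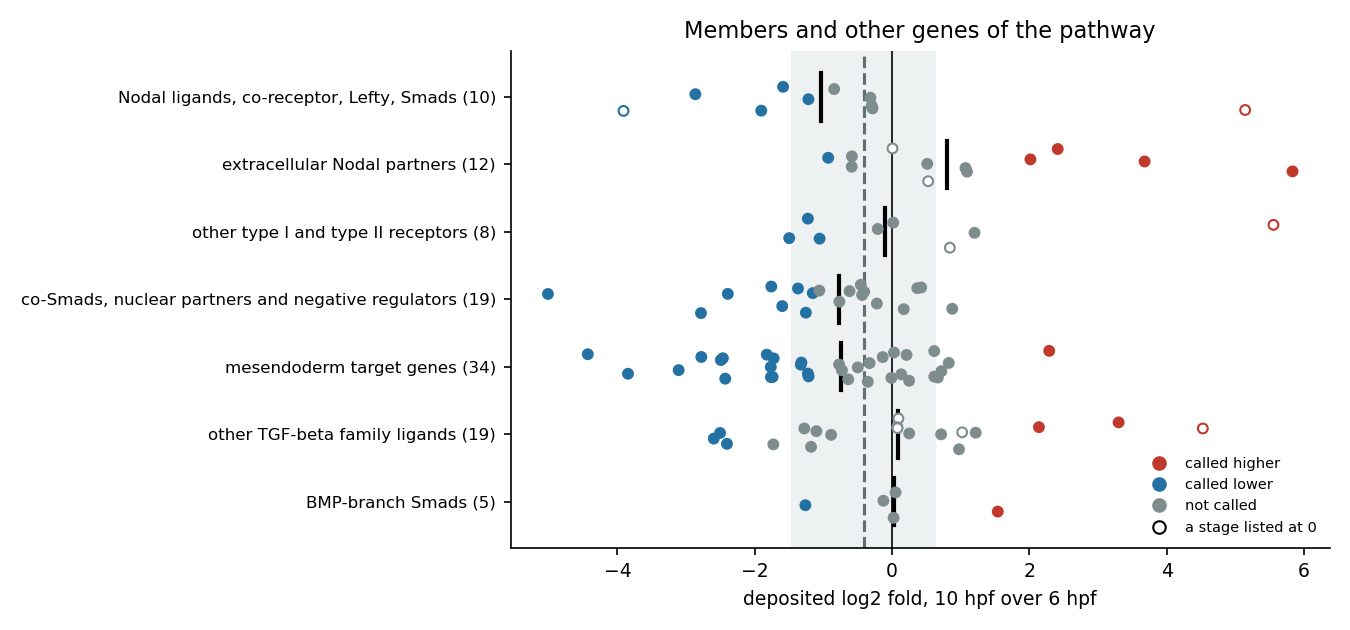
Deposited log2 fold of 10 hpf over 6 hpf for each gene (points coloured by call, open where a stage is listed at 0) in the set and in 6 lists of other pathway genes, with the number of loci in brackets and the median of each list as a black bar. The band and dashed line are the middle 50% and median of genes at 1 RPKM or more. The median of the 10 genes of the set is −1.03 and that of the mesendoderm targets −0.75.

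Genes were also ranked by likeness to lft1, lft2 and tdgf1, as the distance between log2(RPKM + 1) values over the 2 stages, among 7683 named genes at 5 RPKM or more. The nearest to lft2 were fuca2 (distance 0.00768) and aldh1l2 (0.0332), and the nearest to lft1 were slc1a5 (0.0265) and vamp8 (0.0481). For tdgf1 they were a locus annotated as MAL (1 of many) (0.0404) and adipor2 (0.0801). The rule also named ndr1 and ndr2, but both lie under 5 RPKM at each stage and so outside the pool, and their nearest genes in it are not informative. The distance rests on 2 values per gene, and 23 genes of the pool lay within 0.1 of lft2 and 13 within 0.1 of lft1.

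Markers of the extraembryonic layers, in which Nodal genes can also be expressed, differed between the stages too. In the enveloping layer list 0 of 6 genes were called higher and 4 lower, 66.7% called. Among genes at 1 RPKM or more 49.2% were called, 32.9% lower and 16.3% higher. The leading genes called lower in this list were epcam, grhl3 and cldne, while krt4 was not called, at 2305 RPKM at 10 hpf and 1274 RPKM at 6 hpf. Also not called was krt5, named after its values had been seen, at 1443 RPKM at 10 hpf and 869 RPKM at 6 hpf. The summed level of the list was 3890 RPKM at 10 hpf and 2601 RPKM at 6 hpf. Most of this sum came from krt4 and krt5, so it does not follow the genes called lower. In the yolk syncytial layer list 2 of 6 were called higher (apoa2 and apobb.1) and 3 lower (slc26a1, gata6 and mxtx2), of which only mxtx2 (0.162 RPKM at 10 hpf and 1.02 RPKM at 6 hpf, named after its values had been seen) was kept after centring. The same gata6 locus also stands among the mesendoderm target genes, and RNA from whole embryos cannot assign its level to a layer. The summed level of the yolk syncytial layer list was 2849 RPKM at 10 hpf and 1667 RPKM at 6 hpf. Its calls came to 83.3%, again beside 49.2% among genes at 1 RPKM or more. In that list apoeb was not called, at 2596 RPKM at 10 hpf and 1552 RPKM at 6 hpf. None (0) of these markers was listed at 0. Their part in the differences of the Nodal genes was not tested.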

How the data were processed

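RNA was sequenced from whole embryos, with 2 libraries at 10 hpf and 1 at 6 hpf. The submitters' processing notes name TopHat2 2.1.1 and the build GRCz10. They name no read counter, annotation or treatment of paralogs. RPKM values, 1 per stage, were deposited by the authors, as were a log2 fold, a conservative log2 fold (GFOLD) and an empirical false discovery rate (used like a q-value), per the file headers. How the fold was scaled is not stated there.

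Calls were taken as deposited; no test of the difference was made, because no values per library were used. Calculations used Python 3.11.15, pandas 2.3.3 and matplotlib 3.10.9. Depth was read from 5S rRNA genes: 58 low values at 10 hpf and 40 at 6 hpf equalled 1 read over a whole-number length within 0.01 bases (100% at each stage). This does not show whether the libraries were pooled or 1 was used. Centring subtracted −0.50, the median of the deposited fold at 10692 genes with 5 RPKM or more, and assumes that the distance between fold and bound is fixed. It can remove lower calls but adds none, and it cannot remove higher calls. Counting and centring were checked on simulated data with a fixed distance between fold and bound and only large changes. Every simulated call was to be kept, so the removal of a call, as for lft1, was not checked.

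The members and the lists were chosen with earlier results of these data known. Lists matched 108 of 116 entries by symbol, 5 of them through a RefSeq synonym (assembly GRCz12tu, names only). From each list up to 3 called genes at 5 RPKM or more per direction, by absolute log2 fold, and the most abundant gene not called were named; exceptions are marked. Likeness used a pseudocount of 1 and the 2 nearest genes. Alternatives were a false discovery rate below 0.01, an absolute log2 fold of at least 1, minima of 1 and 5 RPKM, centring, and RPKM ratios with pseudocounts of 0, 0.1, 1 and 5.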

Additional observations from a re-analysis of the deposited data

How the results depend on the processing

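A value was regarded as moved when it differed by more than 1.5-fold, in the absence of replicate values. By this rule 145 of 210 recomputed values did not move, but some of them could not have moved. Centring subtracts −0.50 from every fold, which lies inside the tolerance, and all 10 genes passed the minimum of 1 RPKM. A change of sign inside the tolerance was not counted, as for ndr2 (−0.30, with a log2 RPKM ratio of 0.19). The count is therefore no measure of robustness. The 5 lower calls of the set stood at a false discovery rate below 0.01 and with an absolute log2 fold of at least 1, and centring left 4. With genes at 5 RPKM or more, or without the genes listed at 0 (chosen after seeing the data), 0 genes were called higher. The median log2 fold of the set (−1.03) was −0.43 and −0.21 for RPKM ratios with pseudocounts of 1 and 5. The Lefty to Nodal ratio (6.70 at 10 hpf and 7.38 at 6 hpf) was 3.47 at 10 hpf and 2.77 at 6 hpf with gdf3 among the ligands, 3.63 at 10 hpf and 5.03 at 6 hpf with lft1 alone, 3.07 at 10 hpf and 2.35 at 6 hpf with lft2 alone, and 2.75 at 10 hpf and 3.16 at 6 hpf with a pseudocount of 5. With lft1 alone the ratio was thus lower at 10 hpf and with lft2 alone it was higher. Pseudocounts for shares other than that of smad2 were chosen after seeing the data. Shares of smad2, ndr2 and gdf3 moved by less than 1.5-fold with pseudocounts. The share of ndr1 was 1.13%, 8.65% and 21.2% at 10 hpf with pseudocounts of 0.1, 1 and 5, and 21.7% at 6 hpf with 5. That of smad3b at 6 hpf was 0.945%, 7.53% and 19.8%, and that of smad3a at 10 hpf was 24.2% with 5.

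Among lists, lower calls were 0 for extracellular partners at a false discovery rate below 0.01 and after centring, 1 for receptors and 0 for BMP-branch Smads after centring, and 1 for other ligands at 1 or 5 RPKM or more. With loci at 5 RPKM or more, higher calls were 2 for extracellular partners, 0 for receptors and 0 for other ligands. Median log2 folds were 1.55 and 1.54 for extracellular partners at 1 and 5 RPKM or more (0.80 without a minimum) and 0.091 on the ratio with a pseudocount of 5. They were −1.06 for receptors at 5 RPKM or more (−0.10 without), and 1.56 and −2.50 for other ligands at 1 and 5 RPKM or more (0.08 without), the last over admp alone. On the RPKM ratio the receptor median was above 0 (0.18 with a pseudocount of 1), so no direction is given for it. Ratios with pseudocounts of 1 and 5 gave −0.17 and −0.11 for co-Smads and partners, and pseudocounts of 0.1, 1 and 5 gave −0.13, −0.12 and −0.11 for mesendoderm targets. Causes were not tested where a value moved, beyond the scaling and filters themselves.

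No paired analysis was possible because the stages share fewer than 2 replicate numbers and values were given per stage. Leaving out a library was not run for the same reason. Depth limits ndr1, smad3a and smad3b most, at 0 to 62.3 reads per kilobase.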
